A study of Mus musculus with 30 samples.

Results

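The genes described here carry out phototransduction in rod and cone photoreceptors, or build and maintain the cells that do. They were chosen by gene name from a list of 41 genes, and 39 of the 41 had a probe under the listed name in the annotation of the hypothalamus arrays, with 52 probes in all among the 41174 probes and 28146 gene names of the array. Rom1 and Cngb1 had none. A probe that the array annotation lists as BC016201 carries an accession that now belongs to Cngb1, the second subunit of the rod channel, and it was used only beside its cone counterpart Cngb3. Of the 39 genes, 10 act in rods, 9 in cones, 17 in both cell types, and 3 (Gnb5, Pde6d and Unc119) are expressed broadly.

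RNA came from the whole eye and from a block of hypothalamus of adult male mice, either wild type (WT) or lacking the clock gene Per3 (Per3-/-), littermates on a C57Bl/6J background. All mice had been kept under repeated cycles of 3.5 h of light and 3.5 h of darkness and were killed in the light of cycle 17, and the 4 groups share that regime. There were 8 WT and 8 Per3-/- hypothalami and 7 WT and 7 Per3-/- eyes, with 1 array per sample. The paper describes taking both brain and eyes from its 8 mice per genotype, so the tissues share animals. Samples are called mouse 1 to mouse 8 by their replicate number, but no source used here says that a number marks the same animal in both tissues. The 75th percentile of the probe intensities lay between 1131.03 and 2206.6. The hypothalamic block was cut around the optic chiasm, and a whole eye holds cornea, lens, muscle and pigment epithelium as well as retina. In the Per3-/- allele a selection cassette takes the place of the third exon and the intron after it. The Per3 probe, which was lower by 0.45 log2 units in the Per3-/- eyes (adjusted p = 1) and by 0.51 in the Per3-/- hypothalami (adjusted p = 0.067, both limma), was not placed relative to that exon here and is not used as a check of the genotype labels.

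In the dark, cyclic GMP holds open a cation channel in the outer segment of the photoreceptor. Light isomerizes an opsin, the opsin activates the G protein transducin, transducin activates a phosphodiesterase that breaks down cyclic GMP, and the channel closes. Rods and cones use separate gene products for most of these steps. Arrestin, opsin kinase and a complex around Rgs9 shut the response off, and guanylate cyclase with its calcium-sensing activators restores cyclic GMP. The transcription factors Crx, Nrl and Nr2e3 set up and maintain the expression of these genes, and the same machinery is known from the pineal gland.

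Crx, the cone-rod homeobox factor, binds the core TAATCC. The 250 bases before the annotated start were searched for this core on both strands in RefSeq promoter windows (build GRCm38.p6), which were at hand for 31 of the 41 listed genes. It was present in the windows of 13 of the 31 genes (41.9%) and of 1949 of all 27025 genes with a window (7.21%). Among the listed genes with a window it was found for 4 of 8 rod genes, 1 of 5 cone genes, 6 of 15 genes used in both cell types and 2 of 3 broad genes. The last 120 bases before the start are shown for the rod and cone partner genes that hold the core there, since these are the genes whose levels are compared between eyes below. Capitals mark the core or its reverse complement. The windows are chr1:87803560-87803679 (plus strand) for Sag, chr6:3993888-3994007 (plus strand) for Gngt1, chr8:95306586-95306705 (minus strand) for Cngb1 and chr3:108092946-108093065 (plus strand) for Gnat2.
Sag (rod arrestin): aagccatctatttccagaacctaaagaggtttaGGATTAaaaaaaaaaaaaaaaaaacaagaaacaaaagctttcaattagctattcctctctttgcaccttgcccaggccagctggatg
Gngt1 (rod transducin gamma): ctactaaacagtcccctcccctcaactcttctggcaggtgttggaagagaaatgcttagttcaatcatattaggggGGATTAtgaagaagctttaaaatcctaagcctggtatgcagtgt
Cngb1 (rod channel): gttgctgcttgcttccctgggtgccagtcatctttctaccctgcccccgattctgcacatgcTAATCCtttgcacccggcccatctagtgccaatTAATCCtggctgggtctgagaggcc
Gnat2 (cone transducin alpha): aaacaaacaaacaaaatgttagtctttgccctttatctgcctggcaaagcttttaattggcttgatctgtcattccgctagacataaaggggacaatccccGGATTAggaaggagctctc
The core begins 87 bases before the start of Sag, 44 bases before that of Gngt1, 58 and 25 bases before that of Cngb1 and 19 bases before that of Gnat2. A match of letters describes the window only and does not show that Crx binds there.

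All values below are log2 intensities relative to the 75th percentile of their array, so a value of 0 is that percentile. Where a gene had several probes, the probe with the highest mean in the eye was reported. Of the 39 genes, 38 were well above background on every one of the 14 eye arrays, and the exception, Gngt2 (cone transducin gamma), was so on 11 of 14. Fluorescence depends on the probe, so levels are compared between samples and not between genes.

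Nearly all of the photoreceptor genes were higher in the eye than in the hypothalamus. In a limma fit that joined both tissues (30 arrays) and treated arrays of the same genotype and replicate number as a block, 37 of the 39 genes were higher in the eye and 2 were lower at an adjusted p under 0.05, where 47.9% of all probes were higher and 35.2% were lower. The counts were also 37 and 2 without that block. The median fitted difference of the 39 genes was 8.77, or 8.31 with the 10 genes that no hypothalamus array measured well above background set at their lower bound, and that of all probes was 0.19. It was 11.1 for the 10 rod genes (10.62 with 4 of them at their bound) and 6.44 for the 9 cone genes with and without the bound of 1 of them, and the rod and cone values were not tested against each other, because the probes differ in how far they rise above their own background.

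Pdc, phosducin, which binds the beta and gamma subunits of transducin, led by fitted difference, followed by Prph2, Gngt1, Cnga1 and Gnat1, but the first 4 were mostly at background in the hypothalamus, so that their order has no meaning. In the eye its probe read between 7.61 and 7.87 in WT mice, with a median of 7.75, and between 7.46 and 7.80 in Per3-/- mice, and its hypothalamic signal stayed near background throughout. The signal was at least 19300-fold higher in the eye (adjusted p = 1.3e-32), counted against the dimmest signal that was well above background on each hypothalamus array. The gamma subunit of rod transducin, Gngt1, likewise stayed near background in all 16 hypothalami and was at least 10600-fold higher in the eye, where WT mice read between 6.65 and 7.25 and Per3-/- mice between 6.47 and 7.07. Prph2, peripherin, a protein of the outer segment disc rim, read between 7.39 and 7.99 in the eyes and was well above background on 6 of 16 hypothalamus arrays (adjusted p = 8.8e-27). Cnga1, a subunit of the rod channel, read between 5.46 and 5.83 in the eyes and was so on 1 of 16 hypothalamus arrays. Gnat1, rod transducin alpha, was so on 15 of 16 and was higher by 13.09 ± 0.07 in the eye. All 5 were high in every eye, and their values in the 2 tissues did not overlap.

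The rod factors of transcription showed the same separation. Nr2e3, which represses cone genes in rods, was at least 2120-fold higher in the eye and was not well above background in any hypothalamus. Nrl, which directs cells to the rod fate, was well above background on all 16 hypothalamus arrays, where it read between -4.49 and -3.46, and was still higher by 10.56 ± 0.07 in the eye. Crx had a median of 2.95 in WT and of 2.93 in Per3-/- eyes and was well above background on 1 of 16 hypothalamus arrays.

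The smallest positive differences were those of Pde6d, a chaperone of prenylated proteins found in many tissues (1.31 ± 0.05), Gngt2 (1.39 ± 0.15, well above background on 1 of 16 hypothalamus arrays), Cnga3, a subunit of the cone channel (2.58 ± 0.09), Rdh12, a retinol dehydrogenase (2.67 ± 0.07), and Gnb5, the partner of Rgs9 (3.11 ± 0.05). The 2 genes that were lower in the eye are also known as genes of the brain. Slc24a2, the sodium, calcium and potassium exchanger of cones, read between 0.74 and 1.54 in the eyes and between 4.27 and 4.85 in the hypothalami, a difference of -3.31 ± 0.07 (adjusted p = 4.8e-27). Rgs9, which speeds the GTP hydrolysis of transducin and has a striatal form, read between -2.59 and -1.80 in the eyes and between -0.46 and 0.28 in the hypothalami, a difference of -2.16 ± 0.08 (adjusted p = 3.2e-21). The tissues did not overlap for either gene.

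**Figure D1:**
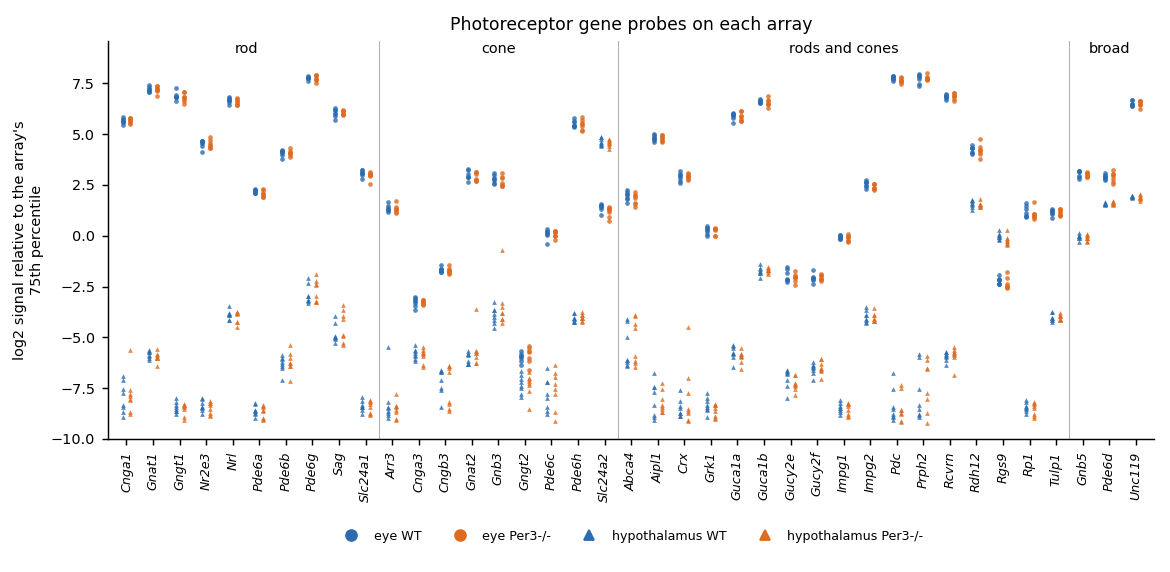
Log2 signal relative to the 75th percentile of the array (vertical axis) for the reported probe of each of the 39 genes (horizontal axis, grouped as rod, cone, rods and cones, and broad), with 1 point per array, circles for eyes and triangles for hypothalami, blue for WT and orange for Per3-/-. The 37 genes higher in the eye have their circles above their triangles, Slc24a2 and Rgs9 have the triangles on top, and single hypothalami stand above the rest for Gnb3 (-0.68), Gnat2 (-3.63), Crx (-4.50) and Arr3 (-5.50).

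Probes of the same gene were not always detected alike. The reported probe of Sag, rod arrestin (chr1:89724996-89728424, build mm9), was well above background on all 16 hypothalamus arrays and read higher by 10.69 ± 0.16 in the eye. A second one (chr1:89723425-89723484) was so on every eye array and on no hypothalamus array, and it was at least 13.3-fold higher in the eye. A second probe of Gnat1 was likewise well above background on all 14 eye arrays and on 0 of 16 hypothalamus arrays. For Slc24a2 the second probe was well above background on all 16 hypothalamus arrays and on 1 of 14 eye arrays, and it too was lower in the eye. Of all 52 probes, 49 were higher and 3 were lower in the eye.

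Among WT eyes the photoreceptor genes varied about as much as other probes did. The SD over the 7 WT eyes had a median of 0.17 log2 units over the 38 genes that every eye array measured well above background, 0.14 over the 10 rod genes, 0.18 over 8 cone genes and 0.18 over all 27934 probes measured that way. The steadiest were Pde6g, the inhibitory subunit of the rod phosphodiesterase (SD 0.07, WT eyes between 7.61 and 7.85), Guca1b, an activator of guanylate cyclase (0.08), Pde6a, a catalytic subunit (0.08), Pdc (0.09) and Impg1, a proteoglycan of the matrix around photoreceptors (0.09). The most variable were Gucy2e, a guanylate cyclase (0.29, WT eyes between -2.29 and -1.56), Rp1, a protein of the outer segment axoneme (0.27, between 0.94 and 1.59), Pde6c, the catalytic subunit of the cone phosphodiesterase (0.23), and Gnat2, Prph2 and Cnga3 (0.22 each). The ranking was that of the WT eyes. In the 7 Per3-/- eyes the SD was 0.15 for Pde6g and 0.18 for Guca1b, but 0.11 for Prph2 and 0.10 for Cnga3.

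Eyes in which the rod genes were high also tended to have high cone genes. When each gene was set relative to its own mean over the 14 eyes, the mean of the 10 rod genes lay between -0.12 and 0.13 in the WT eyes and between -0.14 and 0.16 in the Per3-/- eyes, and the genotypes overlapped. It was highest in Per3-/- mouse 6 (0.16), WT mouse 3 (0.13) and WT mouse 4 (0.10) and lowest in Per3-/- mouse 4 (-0.14) and WT mouse 8 (-0.12). The mean of 8 cone genes was highest and lowest in some of the same eyes, with 0.20 in WT mouse 3, 0.16 in Per3-/- mouse 6 and -0.14 in WT mouse 8 and Per3-/- mice 4 and 8. Across the 14 eyes the rod mean and the cone mean correlated with r = 0.89 (Spearman's coefficient 0.80), with r = 0.85 without the 2 eyes farthest from the median, 0.94 within WT and 0.84 within Per3-/- eyes, and 0.95 once slide and genotype means were removed. These are descriptions with no test, since the values share an array and its scaling.

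Marker lists of other eye tissues were set against the rod mean in the same way. The mean of 37 other photoreceptor genes correlated with the rod mean at r = 0.63, that of 9 ganglion cell genes at 0.71, that of 10 bipolar cell genes at 0.54, and that of 10 genes of cornea and conjunctiva at -0.85 (-0.72 without the 2 farthest eyes and -0.88 within each genotype). The cornea and conjunctiva genes were all measured well above background on every eye array and their mean ran from -0.42 in Per3-/- mouse 6 to 0.45 in WT mouse 8. Lists for lens (0.42), pigment epithelium (0.36), Mueller glia (0.17), amacrine and horizontal cells (0.12) and skeletal muscle (-0.32) had smaller coefficients. The part of eye composition in the rod and cone values was not tested, and in whole eyes fewer photoreceptors and less RNA per photoreceptor cannot be told apart. Among 27884 probes of other genes, the 10 genes most correlated with the rod mean began with Cabp4, a calcium sensor of the photoreceptor synapse (r = 0.91), and held Gba2 (0.88), Pnmal1 (0.88), Opn1mw, the middle-wave cone opsin (0.88), Ufsp2 (0.87), Tm2d3 (0.87), Laptm4b (0.86) and Lamp5 (0.86), where the median over all those probes was -0.02. These genes were picked for the highest coefficients over only 14 eyes. How high such a pick reaches by selection alone was not tested.

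**Figure D2:**
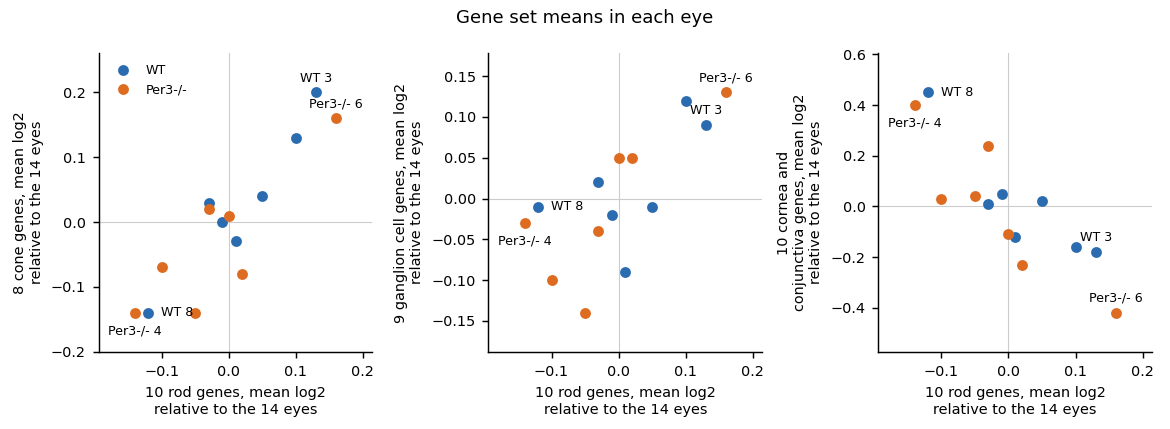
Mean of the 10 rod genes in each of the 14 eyes (horizontal axes, log2 relative to the mean of the 14 eyes) against the mean of 8 cone genes, of 9 ganglion cell genes and of 10 genes of cornea and conjunctiva (vertical axes, same unit), with 1 point per eye, blue for WT and orange for Per3-/-. The points rise for the cone genes (r = 0.89) and fall for the cornea and conjunctiva genes (r = -0.85), with Per3-/- mouse 6 at 0.16 and Per3-/- mouse 4 at -0.14 on the horizontal axis.

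The partner genes that do the same job in rods and cones were compared pair by pair, 7 pairs in all, with permutation tests (100000 resamples, two-sided) adjusted over the 7. The tests treat the eyes as exchangeable, although eyes shared slides and both values of a pair shared an array and its scaling. Both phosphodiesterase pairs passed. Pde6g and Pde6h, the inhibitory subunits, correlated with r = 0.79 (Spearman's coefficient 0.85, permutation p = 0.00054, adjusted p = 0.0038), with r = 0.73 without the 2 eyes farthest from the median of Pde6g, 0.63 within WT and 0.86 within Per3-/- eyes. Pde6b and Pde6c, catalytic subunits, correlated with r = 0.78 (Spearman's coefficient 0.63, permutation p = 0.0014, adjusted p = 0.0049), with r = 0.68 without the 2 farthest eyes, 0.83 within WT and 0.70 within Per3-/- eyes. The second pair rests in part on WT mouse 8, the lowest eye for both genes (3.76 for Pde6b and -0.40 for Pde6c), since the adjusted permutation p was 0.076 (r = 0.60) without it. In every run that left out 1 eye 2 of the 7 pairs passed, so without WT mouse 8 another pair passed in its place. Which pairs passed thus depended on single eyes. With normexp background correction the Pde6g and Pde6h pair did not pass (r = 0.60, adjusted permutation p = 0.085).

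The other 5 pairs did not pass in the main tests, which used all 14 eyes. The arrestins Sag and Arr3 had r = 0.58 (Spearman's coefficient 0.65, permutation p = 0.031, adjusted p = 0.073) and r = 0.71 without the 2 farthest eyes. Gngt1 and Gngt2 had r = 0.46 (Spearman's coefficient 0.56, adjusted permutation p = 0.17), and Gngt2 was close to background. The transducin alpha subunits Gnat1 and Gnat2 had r = 0.11 (Spearman's coefficient 0.06, adjusted permutation p = 0.70), the channel subunits Cnga1 and Cnga3 r = 0.21 (Spearman's coefficient 0.23, adjusted permutation p = 0.54), and Cngb1 and Cngb3 r = -0.27 (Spearman's coefficient -0.12, adjusted permutation p = 0.50). With slide and genotype means removed, 5 of the 7 pairs had an adjusted permutation p under 0.05, among them Gnat1 and Gnat2 (r = 0.60), Gngt1 and Gngt2 (0.63) and Sag and Arr3 (0.61), and Cngb1 and Cngb3 stayed negative (-0.37). Those p-values come from permuted residuals and are too small, because the residuals have fewer degrees of freedom than there are eyes.

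**Figure D3:**
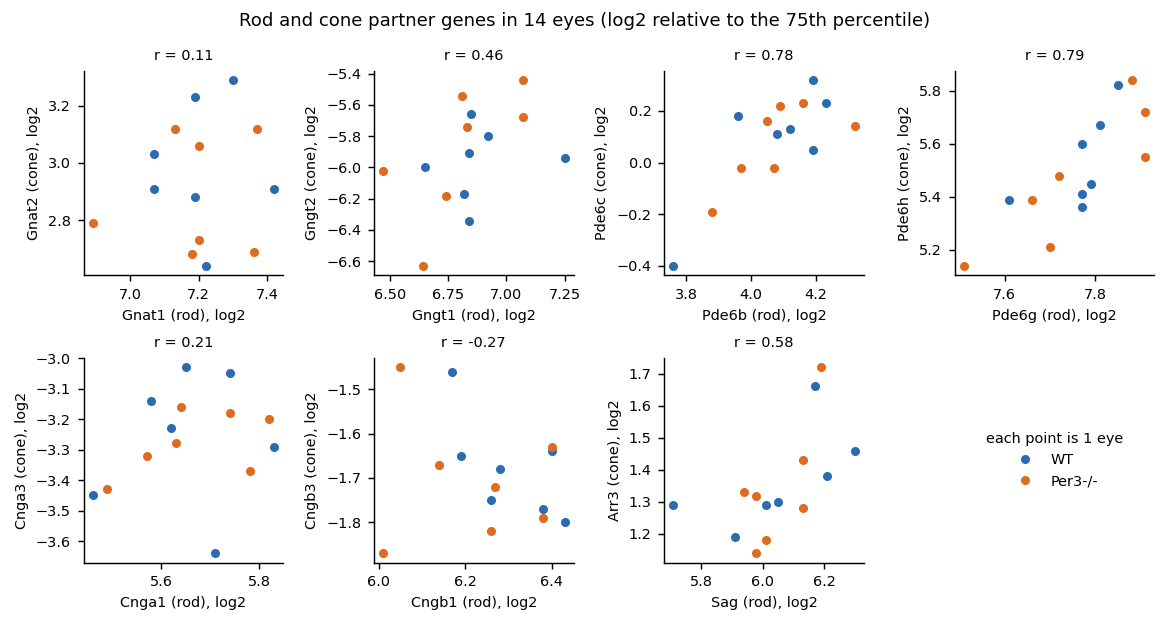
Level of each rod gene (horizontal axes) against its cone partner (vertical axes) in 14 eyes, log2 relative to the 75th percentile of the array, with 1 point per eye, blue for WT and orange for Per3-/-, and Pearson's r above each panel. The Pde6g and Pde6h panel (r = 0.79) and the Pde6b and Pde6c panel (r = 0.78) rise, and the Cngb1 and Cngb3 panel does not (r = -0.27).

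In the eye no photoreceptor gene passed the test for a difference between Per3-/- and WT mice. With limma, 0 of the 39 genes had an adjusted p under 0.05 and 0 had an unadjusted p under 0.05, where 0.0194% and 1.8% of all probes did, and the methods' t-test gave the same 0 and 0. The differences between Per3-/- and WT ran from -0.21 (Slc24a2) to 0.08 (Gngt2), with a median of -0.02, where the median of all probes was 0.00. Of the 39 differences 30 were below 0, where 48.1% of those of all probes were. All 39 of the 95% intervals lay within a change of 1.5-fold either way, and the bounds farthest from 0 were -0.46 for Slc24a2 and 0.45 for Gngt2.

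The genes with the lowest unadjusted p in the eye were all lower in Per3-/- mice by small amounts, as read by their reported probes. The second probe of Impg1, well above background on all 14 eye arrays, had the other sign (0.04). Pdc differed by -0.12 ± 0.07 (adjusted p = 1 by limma), with a WT median of 7.75 and a Per3-/- median of 7.64. Pde6a differed by -0.13 ± 0.07 and Slc24a2 by -0.21 ± 0.12, with medians of 1.46 in WT and 1.28 in Per3-/- eyes. Then came Impg2, a second matrix proteoglycan (-0.13), Abca4, the retinal transporter of the disc rim (-0.17), Slc24a1, the rod exchanger (-0.10), Nrl (-0.08), Rp1 (-0.14), Impg1 (-0.07) and Gnb3, cone transducin beta (-0.11), and the genotypes overlapped for each. The transducin genes ran from -0.11 to 0.08, the phosphodiesterase genes from -0.13 to 0.00, the cyclases and their activators from -0.09 to 0.03, the channel and exchanger genes from -0.21 to 0.01, the shutoff genes from -0.12 to 0.02 and the transcription factors from -0.08 to 0.01. With normexp background correction 4 genes (Nrl, Pdc, Pde6a and Slc24a2) had an unadjusted p under 0.05 and none passed the adjustment. That setting moved the median of all probes to 0.18 and of the 39 genes to -0.07. Leaving out 1 eye moved several of these differences by over 1.5 times without turning their sign. Without Per3-/- mouse 2 Slc24a2 went to -0.13, Slc24a1 to -0.04, Impg1 to -0.03 and Gnb3 to -0.17, without Per3-/- mouse 5 Rp1 went to -0.23, without WT mouse 5 Rp1 went to -0.07, without WT mouse 4 Gnb3 went to -0.06, without Per3-/- mouse 3 Abca4 went to -0.11 and without WT mouse 3 Nrl went to -0.05.

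The cone opsin genes, which are not among the 39, differed as little. Opn1sw, the short-wave cone opsin, differed by 0.12 and Opn1mw by 0.00 between Per3-/- and WT eyes (adjusted p = 1 by limma for both). Of 38 further photoreceptor genes with a probe, 37 were well above background on every eye array, 34 were higher and 3 lower in the eye than in the hypothalamus, and 0 had an unadjusted p under 0.05 for the genotype in the eye, with a median difference of -0.04.

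In the hypothalamus the photoreceptor genes also gave no genotype call, with wider limits. By limma 0 of 39 had an adjusted p under 0.05 and 0 an unadjusted p under 0.05, where 0.0413% and 2.82% of all probes did, and the methods' t-test gave the same 0 and 0. The differences ran from -0.30 to 0.55 with a median of -0.04, and 24 of 39 of the 95% intervals lay within 1.5-fold. Among the 14 genes that every hypothalamus array measured well above background, 11 did. Rgs9 had the lowest unadjusted p, with WT hypothalami between -0.22 and 0.26 and Per3-/- hypothalami between -0.46 and 0.28, a difference of -0.20 ± 0.09 (adjusted p = 0.99 by limma). The highest Per3-/- value, 0.28, came from mouse 1, and the other 7 read between -0.46 and -0.12. The genotype effect did not pass a test of difference between the tissues for any photoreceptor gene, with 0 of 39 at an adjusted and 0 at an unadjusted p under 0.05, where 0.00486% and 2.21% of all probes passed. A p above the threshold does not show that the effects were alike. After Rgs9 the lowest unadjusted p-values in the hypothalamus were those of Grk1, the opsin kinase (-0.28 ± 0.16, seen on no array), Gucy2e (-0.29 ± 0.19), Gnat2 (0.41 ± 0.30), Gnat1 (-0.13 ± 0.10), Guca1a (-0.20 ± 0.16), Sag (0.38 ± 0.30), Pde6d (0.04 ± 0.03), Gnb3 (0.46 ± 0.41) and Crx (0.55 ± 0.54), and the genotypes overlapped for each. The second probes of Sag (-0.05) and Gucy2e (0.07), seen on no hypothalamus array, had the other sign. Without Per3-/- mouse 3, the only one with Crx well above background, the Crx difference was 0.06. Without Per3-/- mouse 7 that of Sag was 0.23, without mouse 8 that of Guca1a was -0.12 and without mouse 1 that of Gnat1 was -0.07. With normexp 8 genes (Aipl1, Cnga3, Cngb3, Gnat1, Gngt1, Guca1a, Gucy2e and Rgs9) had an unadjusted p under 0.05, and none passed the adjustment. With that setting 33 of 39 were lower in Per3-/- mice, where 77.5% of all probes were. Without it 23 of 39 were lower, where 56.1% of all probes were. Normexp moved the median of all probes to -0.08 and of the 39 genes to -0.16.

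**Figure D4:**
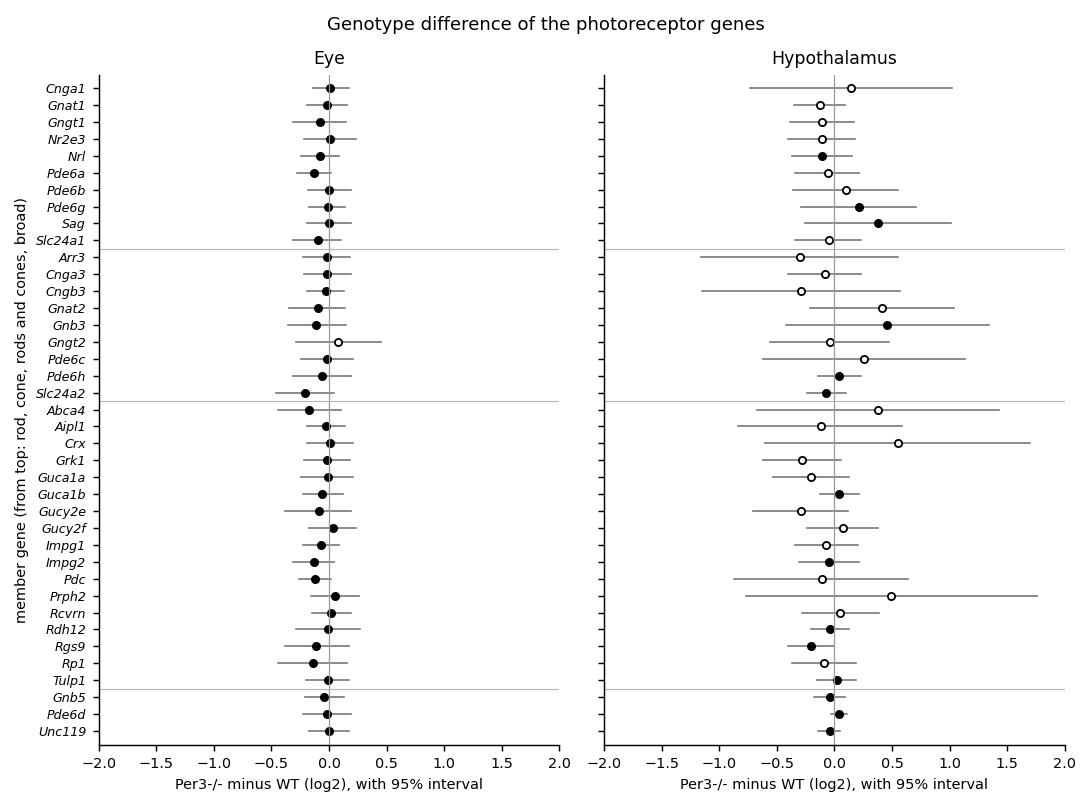
Difference between Per3-/- and WT (horizontal axes, log2) for the 39 genes (vertical axis) in the eye and in the hypothalamus, with the point at the estimate, the bar over its 95% interval, and a filled point where every array of the tissue was well above background. In the eye all bars lie between -0.46 and 0.45, and in the hypothalamus they reach from -1.16 for Arr3 to 1.76 for Prph2.

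Arrays were processed on 4 slides per tissue, each with both genotypes. In the eye, where 15.5% of all probes differed between slides at an adjusted p under 0.05, 0 of 39 photoreceptor genes did, and 0 had an unadjusted p under 0.05. In the hypothalamus, where 1.35% of all probes differed between slides, 1 of 39 did. This was Pdc (adjusted p = 0.0039), whose signal stayed near background in all 16 hypothalami. It read between -7.52 and -6.74 on the 4 arrays of slide 3 and between -9.18 and -8.43 on the other 12.

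Several photoreceptor genes gave signal in the hypothalamus. Of the 39, 14 were well above background on all 16 hypothalamus arrays, 6 on 8 to 15 arrays, 9 on 1 to 7 and 10 on none. Over all probes of the array 66% were so on every hypothalamus array and 18.2% on none. Besides the broad genes, Slc24a2 and Rgs9, the genes seen on all 16 arrays were Rdh12, Guca1b, Impg2, Nrl, Tulp1, Pde6h, Gnb3, Pde6g and Sag. Guca1b read between -2.06 and -1.39 and Tulp1, which carries proteins to the outer segment, between -4.27 and -3.75, so both were steady. Of the 6 genes seen on 8 to 15 arrays, Gnat1 read between -6.41 and -5.56, Guca1a, a second cyclase activator, between -6.55 and -5.38, Rcvrn, recoverin, the calcium-dependent inhibitor of the opsin kinase, between -6.85 and -5.50 and Cnga3 between -6.47 and -5.39, and Abca4 and Gnat2 are described below. The 10 genes whose reported probe was seen on no array were the kinase Grk1, Gngt1, Nr2e3, Pde6a, Pde6c, Impg1, Rp1, the rod exchanger Slc24a1, Aipl1, a chaperone of the phosphodiesterase, and Pdc. For Aipl1 another probe was well above background on 8 of the 16 arrays. For Gnat1 the second probe was so on none of them.

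Sag, Pde6g and Prph2 were higher in the same 6 hypothalami, those of WT mice 5 and 6 and of Per3-/- mice 2, 3, 5 and 7. Sag read between -4.32 and -3.39 in these 6 and between -5.39 and -4.88 in the other 10. Pde6g read between -2.41 and -1.87 in the 6 and between -3.33 and -2.95 in the others. Prph2 was well above background only in the 6, at -6.55 to -5.84, and lay between -9.23 and -7.54 elsewhere. The 6 mice were of both genotypes and lay on all 4 slides, and no correlation is given because the values fall into separate clusters. These genes were named for the shared pattern after the values were seen, and how many of all probes share it was not counted. The second Sag probe, seen on no hypothalamus array, did not show it (-9.07 to -8.19). Crx and Cngb3, mostly near background, each had 5 of their 6 highest values in these 6. Crx was well above background in Per3-/- mouse 3 only, at -4.50.

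Tph1, the tryptophan hydroxylase of the pineal gland, had its 6 highest values in the same 6 hypothalami, -3.80 to -3.25 against -5.99 to -4.72 in the other 10. It was the only one of the 9 measured genes of a pineal list to do so, and 2 of the 9, Crx and Gngt1, are photoreceptor genes themselves. Aanat, the enzyme that acetylates serotonin on the way to melatonin, was well above background on 4 of 16 arrays and shared 3 of the 6. The summed signal of the list, which rests mostly on Ddc, lay between 2.65 and 3.23 in WT and between 2.46 and 3.34 in Per3-/- hypothalami. The part of pineal or other tissue in these 6 samples was not tested.

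Abca4 followed another set of animals. It read between -4.97 and -3.91 in the hypothalami of WT mice 2, 5 and 6 and Per3-/- mice 1, 3, 4 and 6, and between -6.44 and -5.91 in the other 9. Of 10 genes of the choroid plexus, a list also chosen after these values were seen, 9 had their 7 highest values in the same 7 hypothalami. Ttr, transthyretin, which that tissue makes in large amounts, read between 0.09 and 3.03 there and between -6.29 and -1.44 elsewhere. The summed choroid plexus signal lay between 3.72 and 5.83 in WT and between 3.78 and 6.01 in Per3-/- hypothalami, and its part in the Abca4 values was not tested.

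Gnb3 and Gnat2 were high in the hypothalamus of Per3-/- mouse 1. Gnb3 read -0.68 there and between -4.53 and -3.26 in the other 15, and Gnat2 read -3.63 there and between -6.30 and -5.66 in the others. The Cngb1 probe was also highest in this mouse (-1.70 against at most -2.60). All 9 measured genes of an anterior pituitary list, chosen after these values were seen, were highest in this hypothalamus, by a median of 4.62 over the next one, with Gh, growth hormone, at 8.21 and between -5.39 and 3.60 elsewhere. The summed pituitary signal was 10.23 in this hypothalamus, at most 3.10 in the other Per3-/- and between 2.74 and 5.61 in the WT hypothalami, and its part in the 2 genes was not tested. Without this mouse, a fit singled out after the data were seen, the genotype difference of Gnb3 fell from 0.46 ± 0.41 to 0.07 ± 0.19 and that of Gnat2 from 0.41 ± 0.30 to 0.13 ± 0.13 (limma, adjusted p = 0.99 for both with it and 1 without it).

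**Figure D5:**
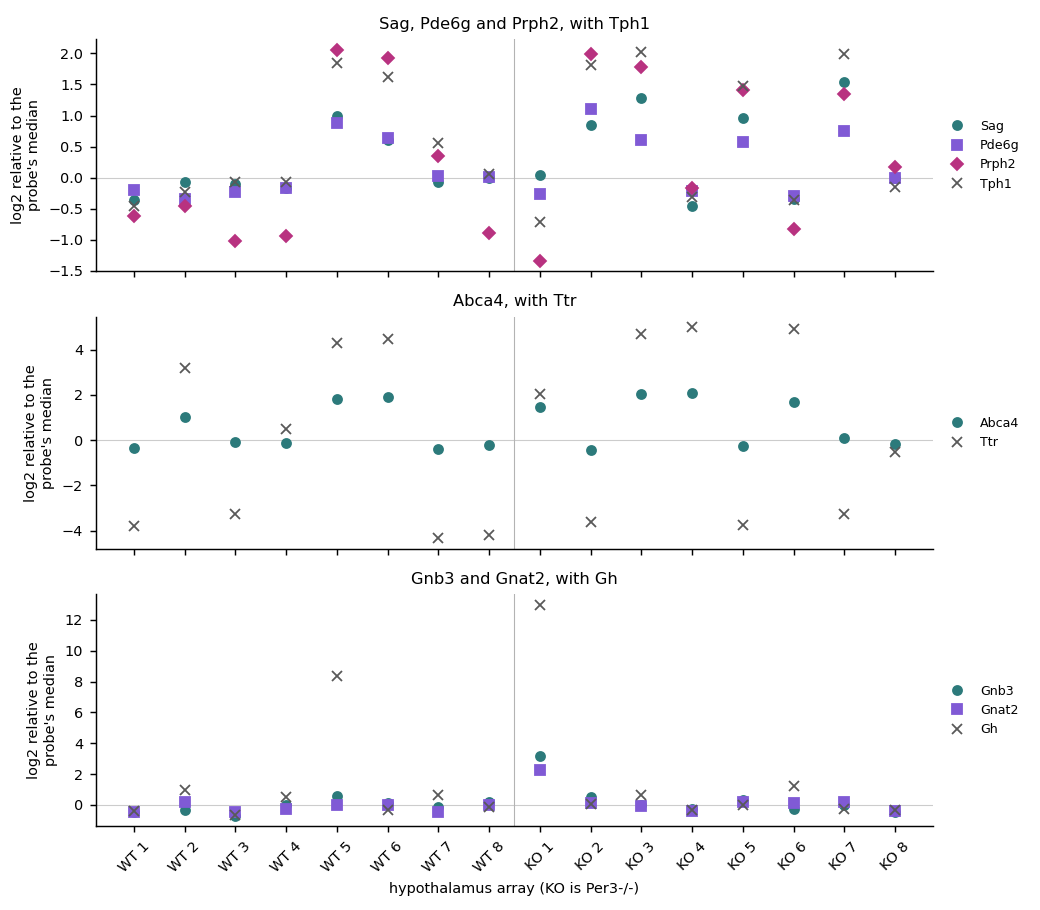
Log2 signal relative to the median of the probe over the 16 hypothalami (vertical axes) on each array (horizontal axis, WT left and Per3-/- right, labelled KO), for Sag, Pde6g and Prph2 with Tph1, for Abca4 with Ttr, and for Gnb3 and Gnat2 with Gh. The upper panel rises in WT 5 and 6 and KO 2, 3, 5 and 7, the middle panel in WT 2, 5 and 6 and KO 1, 3, 4 and 6, and the lower panel in KO 1, with Gh also raised in WT 5 (3.60 relative to the 75th percentile).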

How the data were processed

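Arrays were 1-colour Agilent 60-mer arrays read with Feature Extraction 10.7.1.1. The deposited intensity values are the scanner's processed signals per spot, after the authors' background correction. The authors' deposited log2 table holds the same 75th-percentile values, centred on each probe's median within a tissue, and served as an alternative. Here control and outlier spots were left out, spots of a probe averaged, and log2 intensity taken minus the array's 75th percentile. Genotype, slide and tissue were tested with limma 3.58.1 in R 4.3.3 over 41174 probes with Benjamini-Hochberg adjustment at 0.05, with genotype and replicate number as a random block (correlation 0.059) between tissues. Eye probes were named through the hypothalamus annotation. Same-numbered WT and Per3-/- eyes, which lie on the same slides, deviated together (r 0.109 to 0.627 over 6 pairs). The text names the 10 genes of lowest genotype p per tissue, the 7 pairs, genes seen on at least 8 hypothalamus arrays, and the 5 largest and smallest SDs and tissue differences. Members and lists were chosen with earlier results of these data known. The limma tests were also run on simulated data with noise independent between arrays, which does not cover noise shared within a slide. The number of arrays limits the precision.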

Additional observations from a re-analysis of the deposited data

Results flagged for a closer look

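Each gene was examined in each group whose arrays all measured it well above background. This gave 105 sets of values, which share arrays and are not independent. Chance meets Dixon's criterion in about 1 in 20 such sets. In 9 of the 105 the highest or lowest sample stood apart from the rest by that criterion. Among WT eyes these were Nr2e3 in mouse 1 (4.11, others 4.44 to 4.65), Pde6c in mouse 8 (-0.40, others 0.05 to 0.32), Pde6g in mouse 5 (7.61, others 7.77 to 7.85) and Slc24a2 in mouse 4 (1.03, others 1.32 to 1.54). Among Per3-/- eyes they were Rp1 in mouse 5 (1.65, others 0.81 to 1.09) and Slc24a1 in mouse 2 (2.57, others 2.95 to 3.13). Among Per3-/- hypothalami they were Gnb3 in mouse 1 (-0.68, others -4.30 to -3.33), Rdh12 in mouse 6 (1.79, others 1.40 to 1.58) and Rgs9 in mouse 1 (0.28, others -0.46 to -0.12).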

How the results depend on the processing

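The counts of photoreceptor genes called for genotype (0 in each tissue), for tissue (37 higher, 36 with the filter on dim probes, and 2 lower in the eye) and for their interaction (0) moved by less than 1.5 times under every alternative run, leave-one-out fits included. The replicate block gave 0 adjusted calls in both tissues and 3 genes at an unadjusted p under 0.05 in the hypothalamus. Same-numbered WT and Per3-/- hypothalami correlated at r -0.0293 to 0.315, a range that overlaps that of the eyes, and the pairing was not tested. Normexp, run without that block, gave 8 such genes in the hypothalamus. The slide call in the hypothalamus went to 0 with normexp and with the filter on dim probes. Of the 7 pairs, 5 passed with slide and genotype means removed and 1, Pde6b and Pde6c, with normexp. With normexp Crx in the hypothalamus turned to -0.07, Gngt1 and Gngt2 to r = -0.23 and Cnga1 and Cnga3 to -0.49. Cngb1 and Cngb3 turned to 0.01 with quantile normalization. Gnat1 and Gnat2 ranged from -0.02 (without Per3-/- mouse 5) to 0.25 when each eye was left out. The cause was not tested. Genes dim in the hypothalamus are limited by signal over background there.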
